A study of Mus musculus with 9 samples.

Results

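Levels of 10 genes that control the passage of a cell from G1 into S phase were followed in mouse ovaries with and without a mutated copy of Foxl2. The 10 were 3 D-type cyclins (Ccnd1, Ccnd2, Ccnd3), 1 E-type cyclin (Ccne1), 3 inhibitors of the Cip/Kip family (Cdkn1a, Cdkn1b, Cdkn1c) and 3 of the Ink4 family (Cdkn2a, Cdkn2c, Cdkn2d). They were picked by name, through the Ensembl identifiers of the deposited tables, from the 55536 genes listed there, and all 10 were among the 16213 genes that passed the filter on low counts. RNA-seq covered 9 ovary samples, 3 each of wild type (FOXL2 WT/WT), hyperplasia and granulosa cell tumour (both FOXL2 WT/C134W), and the study set out to find the genes that differ between granulosa cell tumours and normal ovaries. The labels give no age, strain or promoter and name ovary as the tissue of every sample. Nothing in them ties the samples to separate animals, so p-values measure the spread between these samples, which may be technical. Library numbers only name the samples. A title stem is common to hyperplasia library 3 and tumour library 3, and whether they came from the same animal is not stated.

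D-type cyclins bind Cdk4 and Cdk6, and cyclin E binds Cdk2. Both complexes phosphorylate the retinoblastoma protein, which frees E2F factors to switch on genes of DNA replication. Ink4 proteins block Cdk4 and Cdk6, and Cip/Kip proteins bind a wider range of cyclin-CDK complexes. In the ovary, FSH induces Ccnd2 in granulosa cells, the somatic cells around the oocyte, and female mice without Ccnd2 have small follicles that respond poorly to FSH. When granulosa cells turn into luteal cells after ovulation, they leave the cell cycle, Ccnd2 is lost and Cdkn1b accumulates.

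Library totals ran from 11661820 to 20890487 counts. Wild-type library 1 (r of 0.903 and 0.912 with the other wild-type libraries, log2 CPM over the genes tested) and tumour library 2 (r of 0.881 and 0.891) stood apart from the rest of their groups. Tumour library 2 also had no count of Fshr, the FSH receptor of granulosa cells, 0.0974 CPM of Amh, a hormone of growing follicles, and a summed level of 7 surface epithelium markers of 4.29 CPM, against 288 to 1811 CPM in the other 8 libraries. Its levels of Foxl2 (227 CPM) and Esr2, the oestrogen receptor of granulosa cells (182 CPM), lay above all wild-type libraries. In wild type these ranged from 146 to 203 and from 41.0 to 81.4 CPM. The summed level of 9 luteal markers was 13101 to 30006 CPM in wild type, 10270 to 18104 in hyperplasia and 4070 to 4231 in tumours, and that of 9 oocyte markers was 120 to 166, 3.54 to 72.2 and 1.93 to 4.97 CPM. In whole tissue, fewer cells of a type and less RNA per cell cannot be told apart.

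Cdkn2a is the member whose RNA comes in a pair of forms with separate starts. The upstream start gives Arf, which activates p53, and the start nearer to the shared exons gives p16Ink4a, which blocks Cdk4 and Cdk6. The files hold values that bear on both starts, so the bases upstream of each annotated first exon are shown, from the RefSeq promoter windows of GRCm38.p6 (chr4:89294654-89294869 for Arf and chr4:89282193-89282442 for Ink4a, both on the minus strand). Capitals mark matches to TTTNNCGC, a core bound by E2F factors, searched on both strands.
Arf start: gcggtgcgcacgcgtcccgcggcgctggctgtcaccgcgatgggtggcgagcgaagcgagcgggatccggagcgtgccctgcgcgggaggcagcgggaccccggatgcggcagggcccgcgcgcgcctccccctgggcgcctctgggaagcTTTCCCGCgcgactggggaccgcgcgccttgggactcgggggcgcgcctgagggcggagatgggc
Ink4a start: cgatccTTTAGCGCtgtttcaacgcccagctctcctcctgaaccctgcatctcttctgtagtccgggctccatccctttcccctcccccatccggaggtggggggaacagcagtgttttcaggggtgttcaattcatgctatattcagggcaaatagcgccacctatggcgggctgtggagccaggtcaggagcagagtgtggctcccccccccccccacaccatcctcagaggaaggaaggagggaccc
The match lay 99 bases upstream of the RefSeq start of Arf and 244 bases upstream of that of Ink4a. Of 32851 RefSeq windows of 300 bases (250 before to 50 after each start), 5.17% held a match, and among the 11 windows of the 7 members that the table lists these 2 did.

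Further windows are shown for the Cip/Kip members whose levels separated groups. For Cdkn1b (p27), chr6:134920151-134920400 on the plus strand, capitals mark CCAAT, a box bound by the factor NF-Y. For Cdkn1a (p21), chr17:29090856-29090975 on the plus strand, capitals mark the stretch from 1 to the next of 2 copies of ACATGT with 4 bases between them, a pair of p53 sites.
Cdkn1b: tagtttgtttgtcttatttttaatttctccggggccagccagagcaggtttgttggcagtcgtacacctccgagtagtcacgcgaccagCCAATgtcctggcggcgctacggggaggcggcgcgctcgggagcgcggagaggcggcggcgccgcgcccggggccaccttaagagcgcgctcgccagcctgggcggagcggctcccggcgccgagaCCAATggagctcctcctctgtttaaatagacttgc
Cdkn1a distal start: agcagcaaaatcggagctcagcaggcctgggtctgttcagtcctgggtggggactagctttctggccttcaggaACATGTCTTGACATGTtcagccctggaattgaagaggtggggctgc
CCAAT occurred in 37.4% of the windows and in 5 of the 11 of the members. The p53 pair occurred in 4 of 32851 windows (0.0122%), 1 of them that of the distal start of Cdkn1a, 49 bases upstream of that start. The window of the other Cdkn1a start held 0. Only these exact half-site letters were searched, so looser p53 sites were not counted. A forkhead core, TGTTTAC, was found in 3.65% of the windows and among the members in 1, at Ccnd3. No match overlapped one of another motif in the printed stretches, and a match is a description of the letters, not evidence of binding. For Ccnd1, Ccnd2 and Cdkn1c no window was searched.

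Tumours differed most from wild type in Cdkn2a, which was higher in all 3, and in Cdkn1b, which was lower in all 3. Hyperplasia was set apart by Cdkn1a, higher in all 3 libraries than in wild type, and Ccnd2 was higher in all 3 tumours than in hyperplasia. None of these was called by the edgeR quasi-likelihood test at an adjusted p of 0.05 (Benjamini-Hochberg, over all genes tested). Of the 10 genes it called 0 for tumour against wild type, beside 1.6% of all genes, 0 for hyperplasia against wild type, beside 0%, and 0 for tumour against hyperplasia, beside 0.185%. At an unadjusted p under 0.05 there were 2, 0 and 3 of the 10, beside 20.1%, 3.53% and 14.1% of all genes. In CPM (library-size scaled counts, with the TMM factors of edgeR), 1 was higher without overlap (Cdkn2a) and 1 lower (Cdkn1b) for tumour against wild type, beside 10.6% and 13.4% of all genes. For hyperplasia against wild type 1 was higher (Cdkn1a) and 0 lower, beside 4.63% and 5.18%, and for tumour against hyperplasia 2 were higher (Ccnd2 and Cdkn2a) and 0 lower, beside 9.54% and 12.4%. At these shares of all genes, 1 or 2 of 10 is near the background. The median log2 difference was −0.15, −0.28 and 0.07 for the 10, against 0.01, −0.00 and 0.05 over all genes. The median size without sign was 0.47, 0.51 and 0.62, against 0.42, 0.24 and 0.37.

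**Figure D1:**
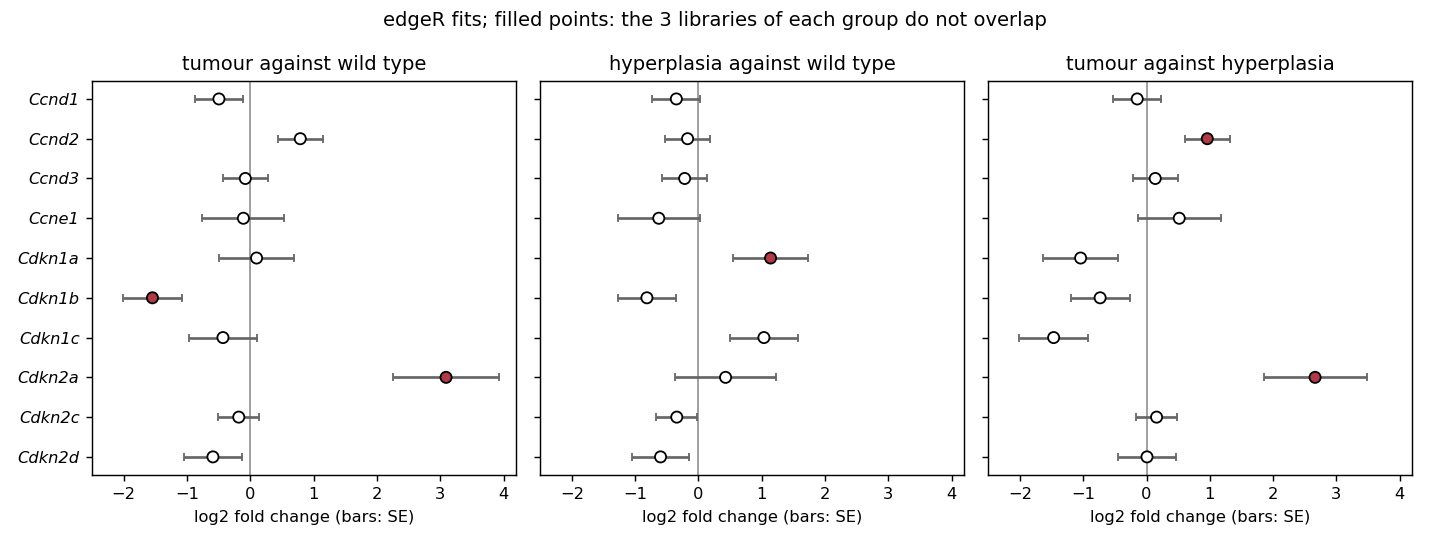
Points give the edgeR log2 fold change of each gene in the 3 comparisons and bars its SE, with filled points where the 3 libraries of each group do not overlap in CPM. Cdkn2a lies farthest from 0 (3.09 and 2.66 in the tumour comparisons), and Cdkn1b lies at −1.55 for tumour against wild type.

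The plot of levels by library shows all 10 genes.

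**Figure D2:**
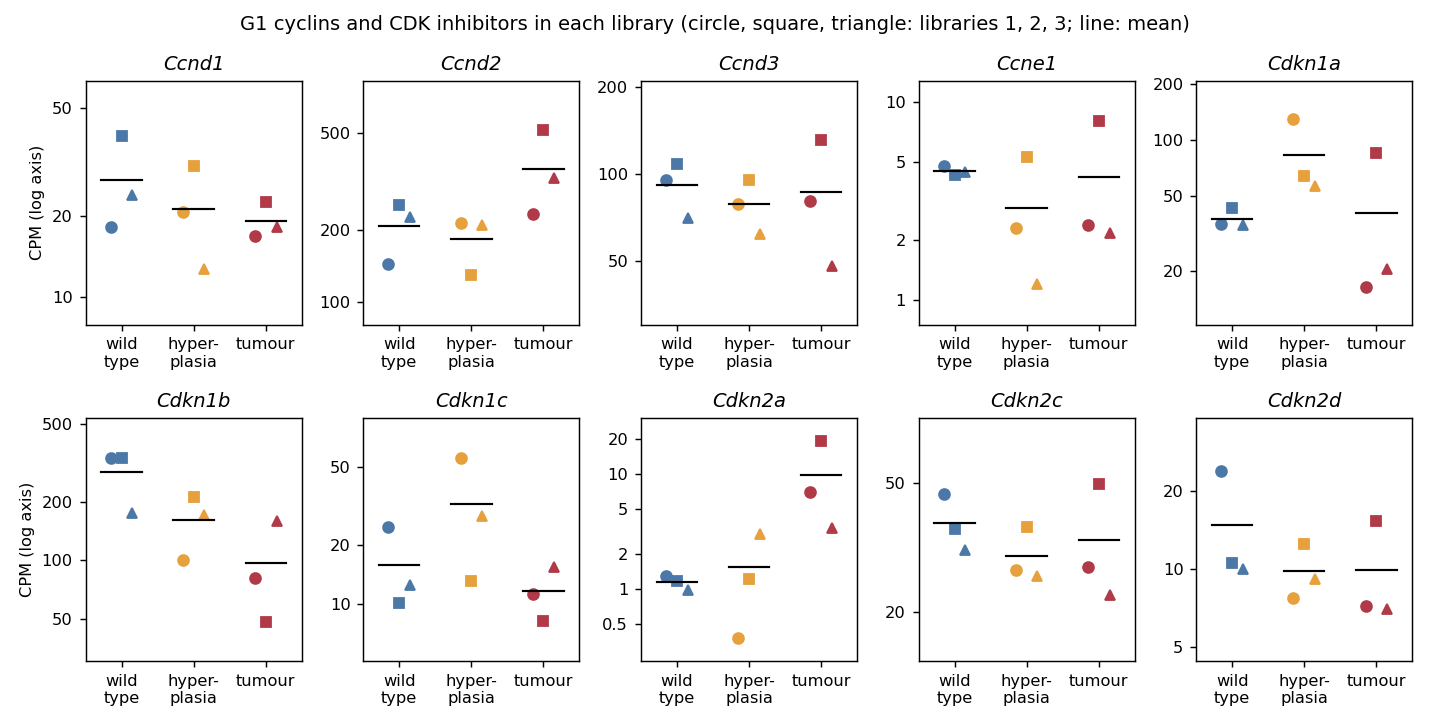
CPM of each gene on a log axis in the 3 wild-type, 3 hyperplasia and 3 tumour libraries, with circle, square and triangle for libraries 1, 2 and 3 and a line at the group mean. The 3 tumour libraries lie above all wild-type ones for Cdkn2a (3.36 to 19.3 against 0.976 to 1.29 CPM) and below all of them for Cdkn1b (48.6 to 159 against 175 to 336 CPM).

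The Ink4 gene Cdkn2a had the largest difference between tumours and wild type among the 10 genes. It lies on chromosome 4 (GRCm38, 89274471 to 89294653, minus strand), with no other annotated gene over it. Wild-type libraries 1, 2 and 3 held 1.29, 1.18 and 0.976 CPM, from 26, 20 and 17 counts. The hyperplasia libraries held 0.374, 1.23 and 3.02 CPM (7, 17 and 63 counts), and the tumour libraries 6.94, 19.3 and 3.36 CPM (105, 198 and 40 counts). All 3 tumours lay above all other libraries. The margin was narrow at the shared title stem: the exact 95% counting intervals of hyperplasia library 3 (2.32 to 3.86 CPM) and tumour library 3 (2.40 to 4.57 CPM) overlapped, and these cover counting error only.

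Set against wild type, tumours stood at a log2 fold change of 3.09 for Cdkn2a (SE 0.83, 8.52-fold), which the edgeR quasi-likelihood test, with Benjamini-Hochberg adjustment over all genes tested, did not call (adjusted p 0.0882). The DESeq2 Wald test called it (3.10, adjusted p 0.00251), and so did edgeR with no filter on low counts (3.07, adjusted p 0.0469). DESeq2 called 10.8% and the unfiltered edgeR fit 2.5% of all genes tested in that comparison. Without tumour library 2 the log2 fold change was 2.16 with an adjusted p of 0.144 by edgeR. Against hyperplasia it was 2.66 (SE 0.81), with an adjusted p of 0.209 by edgeR and 0.0193 by DESeq2, which called 5.03% of genes there, and without tumour library 2 it was 1.73 (edgeR adjusted p 0.387). Hyperplasia against wild type gave 0.43 (SE 0.79, adjusted p 0.999 by edgeR), and −0.53 without hyperplasia library 3, so its direction rested on that library.

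RSEM's abundance-weighted gene length allowed the TPM (RSEM's transcript abundance, scaled for length and depth) of Cdkn2a to be divided between its 2 annotated transcripts, of 852 bases for Ink4a and 895 for Arf. In wild type the Ink4a form stood at 0.763, 0.867 and 1.12 TPM and the Arf form at 1.33, 2.20 and 1.33 TPM. In tumours Ink4a stood at 9.93, 17.6 and 2.697 TPM, and Arf at 5.42, 9.85 and 5.53 TPM. Both forms were thus higher in all 3 tumours than in all 3 wild-type libraries. In hyperplasia Ink4a was listed at 0, 0.490 and 2.03 TPM and Arf at 0.910, 2.51 and 5.10 TPM.

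The make-up differed among the tumours. Ink4a made up 64.7% and 64.1% of Cdkn2a in tumour libraries 1 and 2 but 32.8% in tumour library 3, which lay within the wild-type range of 28.3 to 45.7%. In hyperplasia the share was 0, 16.3 and 28.5%. The split has no test and rests on as few as 7 counts, so the lower shares are imprecise.

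**Figure D3:**
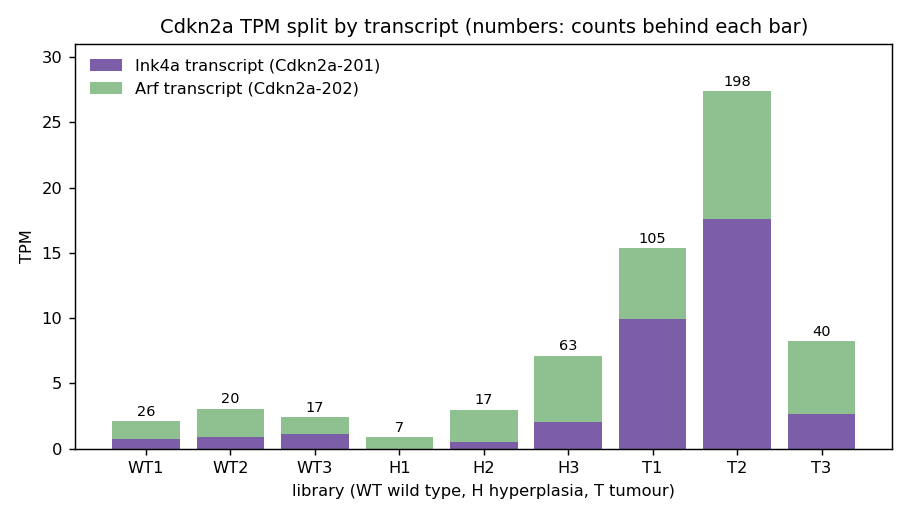
Stacked bars give the TPM of the Ink4a and Arf transcripts of Cdkn2a in each library, with the gene's count above each bar. The Ink4a part is the taller one only in tumour libraries 1 and 2 (9.93 and 17.6 TPM, against 5.42 and 9.85 TPM of Arf).

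Cdkn2b, the neighbouring Ink4 gene, is no member and was added by name after its values were seen. It stood at 12.6, 5.35 and 24.1 CPM in wild type, 19.7, 19.2 and 17.7 CPM in hyperplasia and 9.06, 4.77 and 7.64 CPM in tumours. Tumours overlapped wild type, with a log2 difference of −0.97 (SE 0.49, edgeR adjusted p 0.311), and lay below all 3 hyperplasia libraries (−1.40, SE 0.49, edgeR adjusted p 0.264).

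Cdkn2c (p18, chromosome 4, 109660876 to 109667189) and Cdkn2d (p19, chromosome 9, 21288410 to 21291407) showed how the scale matters. In CPM, Cdkn2c stood at 46.0, 35.9 and 30.9 in wild type, 26.8, 36.5 and 25.8 in the hyperplasia libraries and 27.5, 49.5 and 22.5 in tumours, and the groups overlapped. In TPM it stood at 44.7, 46.8 and 43.0 in wild type, 36.1, 46.1 and 36.9 in the hyperplasia libraries and 32.1, 29.3 and 31.3 in tumours, so that the tumours lay below both other groups. Neither scale gave a call against wild type: the log2 difference was −0.18 (SE 0.32, edgeR adjusted p 0.799) on counts and −0.52 (SE 0.21, limma adjusted p 0.264) on log2(TPM + 1).

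Tumour library 2 was the highest of the 9 for Cdkn2c in CPM and the lowest in TPM. Its longer Cdkn2c transcript (2471 against 1106 bases) made up 50.9% of the gene's TPM, against 15.5 to 31.4% in the other 8 libraries. Cdkn2d likewise overlapped in CPM (7.05 to 15.4 in tumours, 10.05 to 23.99 in wild type) and separated in TPM (9.11, 12.4 and 9.47 in tumours, 22.5, 15.98 and 14.7 in wild type). Its log2 difference was −0.59 (SE 0.46, edgeR adjusted p 0.514) on counts and −0.71 (SE 0.32, limma adjusted p 0.328) in TPM. On counts it was −0.06 without wild-type library 1 and −1.06 without tumour library 2. The median of all genes tested moved from 0.01 on the edgeR scale to −0.12 in TPM for tumour against wild type, from −0.00 to 0.13 for hyperplasia against wild type and from 0.05 to −0.23 for tumour against hyperplasia. TPM values of tumours lay below wild type without overlap in 14.5% of all genes tested, and above it in 4.37%, beside 3 and 1 of the 10 members.

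Among the Cip/Kip inhibitors, Cdkn1b, which encodes p27 (chromosome 6, 134920401 to 134925513, plus strand, no overlapping gene), was lower in every tumour than in any wild-type library. It stood at 335, 336 and 175 CPM in wild type, 100, 210 and 171 CPM in hyperplasia and 81.6, 48.6 and 159 CPM in tumours. The wild-type and tumour libraries did not overlap, though wild-type library 3 lay near the highest tumour, and hyperplasia overlapped both. The log2 difference of tumours from wild type was −1.55 (SE 0.47, 2.92-fold lower), with an adjusted p of 0.118 by edgeR and 0.0199 by DESeq2. Without tumour library 2 it was −1.22 (edgeR adjusted p 0.165), and without tumour library 3 it was −2.11 (edgeR adjusted p 0.103). Hyperplasia differed from wild type by −0.81 (SE 0.46, edgeR adjusted p 0.999) and tumours from hyperplasia by −0.73 (SE 0.46, edgeR adjusted p 0.516), or −0.41 without tumour library 2 and −1.30 without tumour library 3.

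The 9 luteal markers were lower in the same direction. All 9 were fitted lower in tumours than in wild type, and 3 passed by edgeR, beside 1.6% of all genes. Among the 3 were Ptgfr, the prostaglandin F receptor (−6.71, edgeR adjusted p 0.0287), and Cyp11a1, the first enzyme of steroid synthesis (−3.25, edgeR adjusted p 0.0403). The summed level of the 9 did not overlap between tumours and wild type, as given above. The part of the 9 in the Cdkn1b difference was not tested. Both libraries of the shared title stem stood at 171 and 159 CPM in Cdkn1b, beside 175 CPM in wild-type library 3.

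Cdkn1a, which encodes p21 (chromosome 17, 29090976 to 29100727), was higher in every hyperplasia library than in any wild-type library. It stood at 35.5, 43.4 and 35.1 CPM in wild type, 130, 64.5 and 56.7 CPM in hyperplasia and 16.4, 85.4 and 20.4 CPM in tumours. The tumours were split: libraries 1 and 3 lay below all wild-type libraries and library 2 above them. Hyperplasia differed from wild type by 1.14 (SE 0.60), with an adjusted p of 0.999 by edgeR, which called 0 genes in that comparison. There, 572 genes had an unadjusted p under 0.05 and DESeq2 called 19 (0.117%). The summed level of 6 smooth muscle markers was also higher in all 3 hyperplasia libraries (2437 to 5743 CPM) than in wild type (1073 to 2301 CPM). So was that of 6 lymphocyte markers (12.5 to 23.8 against 6.29 to 9.04 CPM), of which 5 were tested and 0 called by edgeR. The part of either in the Cdkn1a difference was not tested. Without hyperplasia library 1 that difference was 0.68. Exons of AC167363.2, on the other strand, cover 7.68% of the exon bases of Cdkn1a.

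The tumour against wild-type difference of Cdkn1a was 0.10 (SE 0.59, edgeR adjusted p 0.951) with tumour library 2 and −1.04 without it (edgeR adjusted p 0.153). Against hyperplasia it was −1.04 (SE 0.60, edgeR adjusted p 0.472), −2.18 without tumour library 2 (edgeR adjusted p 0.0898), −0.66 without tumour library 1 and −0.58 without hyperplasia library 1. In TPM the 3 tumours (15.7, 48.8 and 19.4) lay below the 3 hyperplasia libraries (127, 65.5 and 53.3), with a limma log2 difference of −1.59 (SE 0.47, adjusted p 0.194). In that comparison TPM separated 2 of the 10 members upward (Ccnd2 and Cdkn2a) and 2 downward (Cdkn1a and Cdkn2c), beside 2.68% and 17.3% of all genes tested. Of 18 p53 target genes, 0 were called by edgeR in any of the 3 comparisons. The median log2 difference of these 18 was −0.07 for tumours and 0.14 for hyperplasia, each against wild type, and −0.04 for tumours against hyperplasia, beside 0.01, −0.00 and 0.05 over all genes tested. Fas, the death receptor, had the smallest adjusted p of the 18 for tumour against wild type (−1.24, edgeR adjusted p 0.118).

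Cdkn1c, which encodes p57 and is expressed from the maternal allele of the imprinted Kcnq1 domain (chromosome 7, 143458339 to 143461050), varied most within hyperplasia. It stood at 24.6, 10.1 and 12.6 CPM in wild type, 55.5, 13.2 and 28.1 CPM in hyperplasia and 11.3, 8.18 and 15.5 CPM in tumours, and no pair of groups was free of overlap. The log2 difference was 1.03 (SE 0.53, edgeR adjusted p 0.999) for hyperplasia against wild type and −1.47 (SE 0.54, edgeR adjusted p 0.280) for tumour against hyperplasia. Without hyperplasia library 1 these were 0.39 and −0.83. Of 7 tested genes of that domain, edgeR called 1 higher in tumours than in wild type, beside 1.6% of all genes in either direction. That gene was Osbpl5, a lipid transfer protein (1.77, SE 0.34, edgeR adjusted p 0.0464). Exons of Gm44732, on the other strand, cover 30.7% of the exon bases of Cdkn1c, and whether strand was used in the counting is not stated.

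Summed over the family, Cip/Kip RNA stood at 219, 293 and 173 TPM in wild type, 276, 225 and 206 TPM in hyperplasia and 81.1, 74.3 and 149 TPM in tumours. The tumours lay below both other groups, as they also did in CPM (109 to 195 against 223 to 395 in wild type and 256 to 288 in hyperplasia). Cdkn1b made up 67.9 to 78.5% of the family's TPM in wild type. Its share was 24.6, 62.5 and 55.0% in hyperplasia and 59.3, 25.2 and 72.1% in tumours, so that hyperplasia library 1 and tumour library 2 both lay far below the rest.

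**Figure D4:**
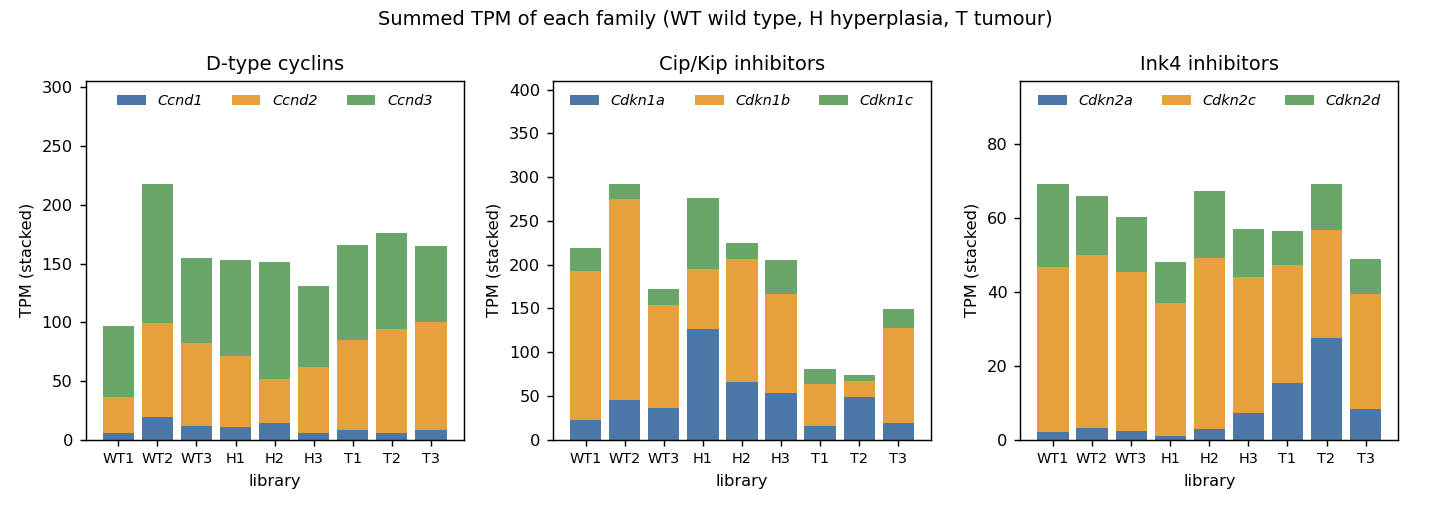
Stacked bars give the TPM of the D-type cyclins, the Cip/Kip inhibitors and the Ink4 inhibitors in each library. The Cip/Kip sum is 74.3 to 149 TPM in tumours and 173 to 293 in wild type, while the D-cyclin sums (165 to 176 against 97.2 to 218) and the Ink4 sums (49.0 to 69.2 against 60.2 to 69.4) overlap between these groups.

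Of the D-type cyclins, Ccnd2, the FSH-induced cyclin of granulosa cells (chromosome 6, 127125162 to 127152193), lay above hyperplasia in every tumour. It stood at 145, 252 and 225 CPM in wild type, 213, 129 and 209 CPM in hyperplasia and 232, 515 and 326 CPM in tumours. The lowest tumour lay above the highest hyperplasia library, and tumour library 1 lay within the wild-type range. The log2 difference was 0.96 (SE 0.36, 1.94-fold) against hyperplasia and 0.79 (SE 0.36, 1.73-fold) against wild type, with adjusted p of 0.284 and 0.257 by edgeR. Without tumour library 2 these were 0.60 and 0.43. Exons of 9330179D12Rik and Gm43126, on the other strand, cover 3.91% and 3.95% of the exon bases of Ccnd2.

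Granulosa markers moved in both directions in the tumours. Of the 10, 7 were fitted above 0 and 3 below 0 against wild type, among the latter Amh at 210 to 222 CPM in wild type and 0.0974 to 39.3 CPM in tumours (−3.79, SE 1.17, edgeR adjusted p 0.121). The summed level of the 10 granulosa markers was 4058 to 4838 CPM in tumours against 987 to 2996 in hyperplasia and 1719 to 3635 in wild type, with 0 of 10 called by edgeR in any comparison, and its part in the Ccnd2 difference was not tested. Of 12 genes of FOXO and FSH regulation, 9 were fitted above 0 in tumours against wild type, with a median of 0.49 beside 0.01 over all genes tested, and 0 were called. Esr2 (1.73) and Smad3 (1.346), which carries TGF-beta and activin signals, had the smallest adjusted p of these, 0.0574 and 0.0696 by edgeR.

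Ccnd3 (chromosome 17, 47505051 to 47599691) stood at 95.5, 108 and 70.6 CPM in wild type, 78.6, 95.01 and 62.1 CPM in hyperplasia and 80.5, 131 and 48.2 CPM in tumours. Its groups overlapped in every comparison, and its tumour against wild-type difference was −0.08 (SE 0.35, edgeR adjusted p 0.930). Ccnd1 (chromosome 7, 144929931 to 144939925), the D cyclin most tied to growth factor signalling, stood at 18.1, 39.2 and 23.8 CPM in wild type, 20.6, 30.4 and 12.7 CPM in hyperplasia and 16.8, 22.5 and 18.2 CPM in tumours. Its groups overlapped too, with a tumour against wild-type difference of −0.50 (SE 0.38, edgeR adjusted p 0.506). Exons of LTO1, on the other strand, cover 23.4% of the exon bases of Ccnd1. The expected counts of Ccnd1 were not whole in any of the 9 libraries, so its level is uncertain. Those of Ccnd3 were not whole in 8 of the 9, and exons of Bysl, on the other strand, cover 4.11% of its exon bases.

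The share of Ccnd2 in the summed TPM of the D-type cyclins was higher in all tumours than in all other libraries on that scale. It was 31.6, 36.6 and 45.8% in wild type, 39.6, 24.9 and 43.2% in the hyperplasia libraries and 46.4, 50.2 and 55.7% in tumours, with means of 38.03 ± 7.19, 35.9 ± 9.67 and 50.8 ± 4.64% (SD, n = 3). Tumour library 1 exceeded wild-type library 3 by under 1 percentage point. The share of Ccnd3 was 39.3 to 48.7% in tumours and 46.9 to 62.6% in wild type, and that of Ccnd1 was 3.42 to 5.06% in tumours and 5.75 to 8.78% in wild type. In CPM the Ccnd2 share did not separate the groups: tumour library 1 had 70.4%, below the 73.7% of hyperplasia library 3 and level with the 70.4% of wild-type library 3. The summed TPM of the 3 cyclins was 157 ± 60.5 in wild type, 145 ± 12.4 in the hyperplasia libraries and 169 ± 6.16 in tumours (SD, n = 3). These sums overlapped between tumours and wild type, and lay above hyperplasia in all 3 tumours (165 to 176 against 131 to 153 TPM), as they also did in CPM (329 to 668 against 255 to 312).

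Ccne1, which encodes cyclin E1 (chromosome 7, 38097984 to 38107534), was low in all groups. It stood at 4.77, 4.29 and 4.42 CPM in wild type, 2.30, 5.28 and 1.197 CPM in hyperplasia and 2.38, 7.99 and 2.18 CPM in tumours. The wild-type libraries lay close together, and both lesion groups spread on either side of them. The tumour against wild-type difference was −0.11 (SE 0.65, edgeR adjusted p 0.950), and leaving out tumour library 1 or 3 turned it to 0.18 or 0.20. Ccne2, its relative, added by name, stood at 15.2, 10.6 and 9.36 CPM in wild type and 3.24, 13.1 and 5.03 CPM in tumours (−0.73, SE 0.52, edgeR adjusted p 0.480).

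Compared per length, the order of the 10 genes differed between the groups, although most neighbours overlapped. In wild type Cdkn1b led with 172 ± 56.4 TPM, followed by Ccnd3 (84.2 ± 30.8), Ccnd2 (60.5 ± 26.2), Cdkn2c (44.9 ± 1.89) and Cdkn1a (34.8 ± 11.2) (SD, n = 3). Cdkn1c (20.90), Cdkn2d (17.7), Ccnd1 (12.02), Ccne1 (3.88) and Cdkn2a (2.54 ± 0.50 TPM) came next, and only Ccnd1 and Ccne1 were neighbours whose libraries did not overlap. In hyperplasia Cdkn1b (107 ± 36.6 TPM), Ccnd3 (83.2 ± 15.4) and Cdkn1a (81.9 ± 39.5) led, with overlap among them. In tumours Ccnd2 (85.8 ± 7.71 TPM) and Ccnd3 (75.8 ± 9.53) led, Cdkn1b was at rank 3 (58.2 ± 45.4) and Cdkn2a at rank 6 (17.0 ± 9.70), again with overlap between these neighbours in the order. Cdkn2a took 27.9 ± 11.4% of the summed TPM of the 3 Ink4 genes in tumours, 6.29 ± 5.54% in hyperplasia and 3.92 ± 0.84% in wild type (SD, n = 3), and its 16.8 to 39.6% in tumours lay above the 1.89 to 12.5% of all other libraries.

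Tumour library 2 set the extremes of 7 of the 10 genes in CPM. It was the highest of the 9 libraries for Ccnd2, Ccnd3, Ccne1, Cdkn2a and Cdkn2c and the lowest for Cdkn1b and Cdkn1c. In TPM it was the highest for Cdkn2a alone and the lowest for Cdkn1b, Cdkn1c and Cdkn2c. The plot of alternatives shows the same genes under other tests and with libraries left out.

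**Figure D5:**
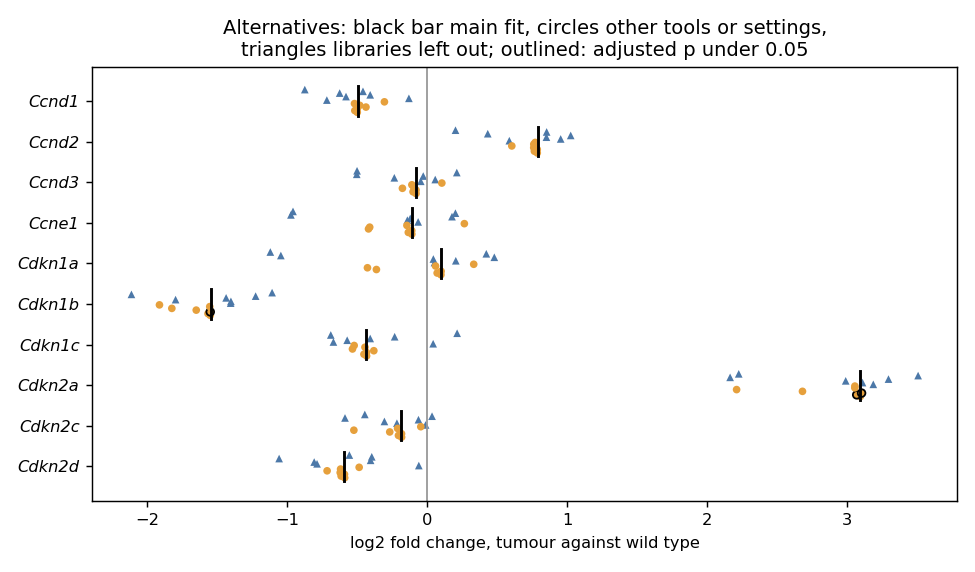
Log2 fold change of tumour against wild type for each gene, with a black bar for the edgeR fit on all libraries, circles for other tools or settings and triangles for fits without 1 or 2 libraries. Cdkn2a stays between 2.16 and 3.51 and Cdkn1b between −2.11 and −1.11, while Cdkn1a runs from −1.12 to 0.48.

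The partners and targets of these genes were followed in lists that held them. Of 28 genes of the G1/S pathway, 0 were called by edgeR in any comparison. Their median log2 differences were −0.06 for tumours and −0.18 for hyperplasia, each against wild type, and 0.18 for tumours against hyperplasia. Mycn, a transcription factor that drives growth, had the smallest adjusted p of these 28, which did not hold Cdkn2a or Cdkn1b, for tumour against wild type. Mycn stood at 27.0, 18.8 and 22.1 CPM in wild type and 30.5, 141 and 60.6 CPM in tumours (1.77, SE 0.64, edgeR adjusted p 0.171). Cdc25a, the phosphatase that activates Cdk2, stood at 20.1 to 28.2 CPM in wild type and 29.4 to 41.3 CPM in tumours without overlap (0.50, SE 0.22, edgeR adjusted p 0.258). E2f7, a repressor among the E2F factors, had a log2 difference of −1.15 between tumours and wild type (SE 0.55, edgeR adjusted p 0.277). Cdk4, added by name, stood at 320, 197 and 193 CPM in wild type and 263, 448 and 285 CPM in tumours (0.49, SE 0.29, edgeR adjusted p 0.399). The log2 differences of Cdk6, Cdk2 and Rb1, also added by name, were 0.34, −0.27 and 0.23 for tumour against wild type.

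Genes that mark passage into S phase and mitosis were not called either. Of 18 E2F targets 0 were called by edgeR in any comparison, and all 18 were fitted below 0 in hyperplasia against wild type, with a median of −0.57 beside −0.00 over all genes tested. Of 12 mitosis genes 0 were called, and all 12 were fitted below 0 in both lesions against wild type, with medians of −0.79 in tumours and −1.24 in hyperplasia. The summed level of the 12 was 392 to 514 CPM in wild type, 112 to 303 in hyperplasia and 162, 467 and 169 CPM in tumours, so that tumour library 2, with the highest CPM of 3 of the 4 cyclins, lay within the wild-type range and the other tumours below it.

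As a description over the 9 libraries, which share the groups and the scaling, the genes whose log2 CPM followed each of the 8 members above 10 CPM most closely were listed. Ccnd1 was followed by Ncapg2 (r = 0.984), Wdr90 and Ncapd3, 2 of which encode subunits of the condensin II complex. Ccnd2 was followed by Cdc25a (r = 0.969), Edc3 and Rnf219, and Ccnd3 by Emp3 (r = 0.952), Haus5 and Chtf18. Cdkn1a was followed by Il1b (r = 0.931), Mn1 and Slc16a6, and Cdkn1b by Ap4b1 (r = 0.984), Pfn4 and Rab33a. Cdkn1c was followed by Cd3e (r = 0.950), Pcp4l1 and Slc30a1. The limit of 10 CPM applied to the members only: Il1b, Pfn4 and Cd3e had means of 1.77, 1.22 and 1.72 CPM, so their correlations rest on few counts. Cdkn2c was followed by Sdhb (r = 0.983), Arvcf and Ufsp2, and Cdkn2d by Commd4 (r = 0.993), Cmc2 and Mrpl42. Among the 10 genes themselves the closest pairs were Cdkn2c with Cdkn2d (r = 0.899), Ccnd3 with Cdkn2c (r = 0.886) and Ccne1 with Cdkn2c (r = 0.863), and the most opposed was Ccnd2 with Cdkn1b (r = −0.656).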

How the data were processed

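RNA-seq was made from Trizol-extracted ovary RNA with a stranded TruSeq mRNA kit, per the labels' protocols. Per the submitters' processing notes, RSEM 1.3.1, STAR 2.7.1a, Picard 2.8.1 and FastQC were used on GRCm38, with no roles given. Whether counting used strand is not given in the sources at hand. For each of the 9 samples the authors deposited RSEM expected counts (not normalised, 25.6% of values above 0 not whole at a tolerance of 0.001) and TPM, per the file headers. The FPKM values the authors deposited were not used. The genotype in the labels could not be checked, because gene counts do not show the mutated base.

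Symbols and coordinates came from GENCODE M21, to which all 55536 identifiers matched. Expected counts were rounded and tested with edgeR 4.0.16 (R 4.3.3): TMM factors of 0.797 to 1.08, filterByExpr with a minimum count of 10 and a minimum total of 15, 1 quasi-likelihood fit over the 3 groups, 3 contrasts and Benjamini-Hochberg adjustment over 16213 genes at 0.05. The procedure was tested on simulated data. Precision was limited by 3 libraries a group and, for Cdkn2a, by counts of 7 to 198. Alternatives were DESeq2 1.42.0 (size factors, Wald test), limma-voom and log2(TPM + 1) with limma 3.58.1, no filter, fits of only the groups compared, a term for the shared title stem, and libraries left out. Leaving out wild-type library 1 and tumour library 2 together was chosen after seeing the data.

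The split of a gene with 2 transcripts solved the deposited gene length as the mean of both lengths. The length equalled the single transcript's in 100% of 34471 genes and lay between both lengths in 100% of 5922 genes, at a tolerance of 0.01 bases. No libraries were duplicates (smallest chi-square per degree of freedom 25.0). Text names all 10 members, the 3 protein-coding genes with the highest correlation to each member above 10 CPM, up to 4 genes per list by adjusted p, and genes said to be added by name. Members, lists and alternatives were chosen with earlier results of these data known. For tumour against wild type, edgeR called 1.6% of all genes. In the other marker lists it called 4 of 8 oocyte markers and 2 of 7 macrophage markers lower. Of 6 theca, 6 endothelium, 6 smooth muscle, 7 surface epithelium and 5 lymphocyte markers, 0 were called.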

Additional observations from a re-analysis of the deposited data

How the results depend on the processing

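No paired analysis was possible because the labels give no replicate numbers, and the nearest fit was the term for the shared title stem. Of 420 values of the 10 genes under alternatives, 379 kept their direction and side of the threshold, 4 became calls (Cdkn2a for tumour against wild type by DESeq2 and without the filter, Cdkn2a for tumour against hyperplasia and Cdkn1b for tumour against wild type by DESeq2) and 37 turned sign, all of genes that were not called. The number of genes called for tumour against wild type was 259, and became 721 without the filter, 1747 by DESeq2, 428 in TPM, 0 with the stem term, 0 to 69 with 1 library left out and 8 without wild-type library 1 and tumour library 2. For hyperplasia against wild type it was 0, and became 2 without the filter, 19 by DESeq2, 1 in TPM, 3 with only the groups compared and 2 without those 2 libraries. For tumour against hyperplasia it was 30, and became 199 without the filter, 816 by DESeq2, 4 by limma-voom, 76 in TPM, 1 with only the groups compared, 12 with the stem term, 0 to 128 with 1 library left out and 0 without those 2 libraries. The causes were not tested. In expected counts, unscaled for length, Ccnd2 had 63.2, 64.2 and 76.9% of the D-type cyclins in wild type, hyperplasia and tumours, and Ccnd3 28.7, 28.1 and 18.8%.

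The log2 differences that turned sign were small or rested on 1 library. With 1 library left out, tumour against wild type ran from −0.50 to 0.21 for Ccnd3, −0.97 to 0.20 for Ccne1, −1.04 to 0.48 for Cdkn1a, −0.69 to 0.0427 for Cdkn1c and −0.59 to 0.0348 for Cdkn2c. Hyperplasia against wild type ran from −0.68 to 0.0188 for Ccnd1, −0.37 to 0.0394 for Ccnd2 and −0.53 to 0.89 for Cdkn2a. Tumour against hyperplasia ran from −0.41 to 0.17 for Ccnd1, −0.29 to 0.43 for Ccnd3, −0.35 to 1.205 for Ccne1, −0.25 to 0.37 for Cdkn2c and −0.46 to 0.20 for Cdkn2d. Without wild-type library 1 and tumour library 2 together, tumour against wild type was −1.12 for Cdkn1a and 0.21 for Cdkn1c, and tumour against hyperplasia −0.31 for Ccnd3, −0.36 for Ccne1, −0.27 for Cdkn2c and −0.48 for Cdkn2d. With the stem term, tumour against wild type was 0.10 for Ccnd3 and 0.27 for Ccne1, hyperplasia against wild type 0.0374 for Ccnd3, and tumour against hyperplasia −0.0233 for Cdkn2d. In TPM, Cdkn1a was −0.43 for tumour against wild type, Ccnd3 0.0255 for hyperplasia against wild type, and Ccnd3, Cdkn2c and Cdkn2d −0.12, −0.34 and −0.39 for tumour against hyperplasia. By limma-voom, Cdkn1a was −0.36 for tumour against wild type and Cdkn2d −0.0738 for tumour against hyperplasia, which was −0.0196 without the filter and −0.0047 with only the groups compared.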
